A study of Mus musculus with 3 samples.

Results

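The genes described here are Mpst, the gene of mercaptopyruvate sulfurtransferase, and 9 other genes of sulfur and glutathione metabolism in mouse soleus muscle: Tst, Cth, Cbs, Gclc, Gclm, Gss, Gsr, Gpx1 and Gpx4. Mpst was chosen by its measured value, a low ratio of knockout over wild type in these same arrays, so its values are a description and carry no test. The other 9 were picked as its partners in metabolism, to ask whether the low ratio was shared. The 10 genes had 13 of the 55681 probes on the array, found through the RefSeq accession of each probe. Of the 7418 genes or transcripts tested, 5 were members: Mpst, Tst, Gclc, Gsr and Gpx4.

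The knockout mice (KO) were homozygous for a LacZ allele of Mettl21c (genotype Mettl21c LacZ/LacZ), and the mice they were compared with were wild type (WT). All were male C57BL/6 mice aged 8 weeks on a regular chow diet, and the labels call the muscle SOL, taken here to mean the soleus. Each of 3 arrays with 2 colours held 1 KO sample in Cy5 and 1 WT sample in Cy3, described as biological replicates. The dyes were never exchanged, so a preference of a probe for one dye and an effect of the genotype cannot be told apart. The allele was not described further in the labels, and Mettl21c codes for a lysine methyltransferase of proteins found mainly in muscle.

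The sulfur of methionine reaches cysteine through transsulfuration, whose enzymes are cystathionine beta-synthase (Cbs) and cystathionine gamma-lyase (Cth). Cysteine is then either broken down, in part through mercaptopyruvate and Mpst, which passes the sulfur on as persulfide and hydrogen sulfide, or built into glutathione by the ligases of Gclc, Gclm and Gss. Glutathione is the main small thiol of the muscle fibre. It is spent by peroxidases such as Gpx1 and Gpx4 and restored to its reduced form by Gsr.

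Array 3 departed from the other arrays in a corner, which bears on some of the members. For each spot, the signals in a square of 17 by 17 spots around it were correlated between arrays. Arrays 1 and 2 matched in this way almost everywhere, with a median correlation of 0.977 and 301 of the 59305 non-control spots below 0.80. This is a match of signals and not of ratios. The ratios of KO over WT correlated at 0.35 between arrays 1 and 2, 0.21 between 1 and 3 and 0.33 between 2 and 3. Array 3 matched the other arrays with a median of 0.888, but 37.7% of its spots lay below 0.80, and the lowest value was -0.10. These spots lay at low column numbers, lowest toward the high rows. They included the representing probe of 2268 of the 7418 genes tested (30.6%). Among the members with signal, Gpx1 lay deep in this corner (0.30) and Gpx4 at its edge (0.68), while Mpst lay on the matched side (0.93), as did both Tst probes (0.90 and 0.92), Gclc (0.89) and the bright Gsr probe (0.97). Results of members that rest on such spots are given below with and without them, as are list medians and several named genes. Counts of positive and negative ratios in the lists keep these spots.

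**Figure D1:**
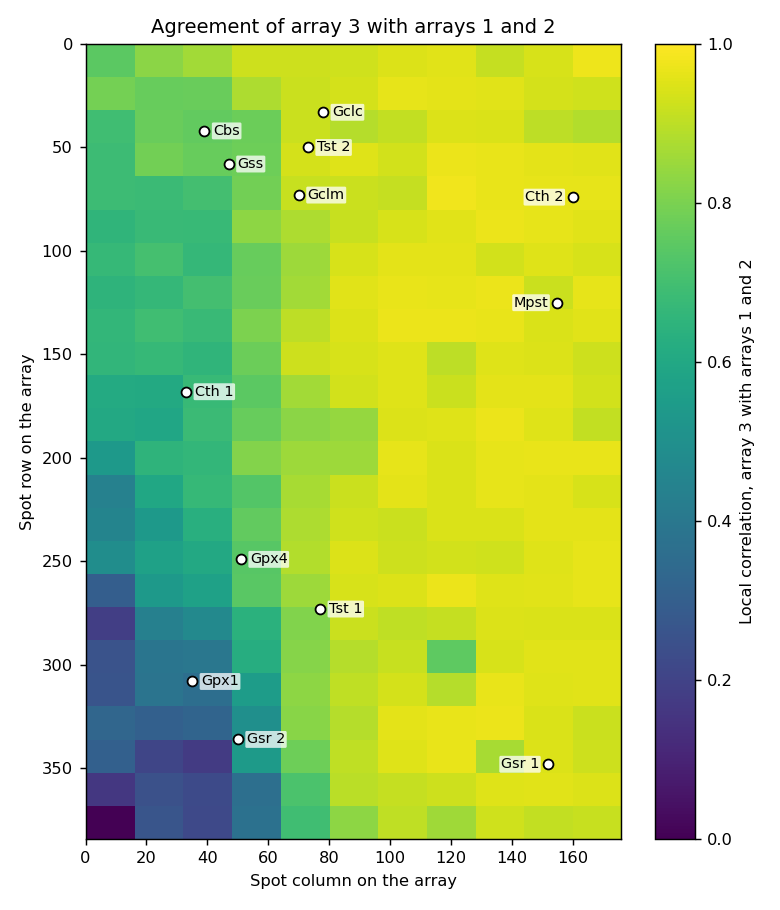
Position of the 13 member probes on the array (spot column and spot row on the axes), with colour giving the mean local correlation of log2 signals between array 3 and arrays 1 and 2, on a scale from 0 to 1. Gpx1, at 0.30, sits in the dark corner of low columns and high rows, and Mpst, at 0.93, on the yellow side.

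Mpst was lower in KO soleus than in WT soleus on each of the 3 arrays, and no other tested member had a normalised ratio below 0 on all 3. The scanner's processed signal of its single probe was 2101, 2378 and 2662 in KO muscle on arrays 1 to 3, against 4497, 3473 and 6235 in WT muscle. The highest KO signal lay below the lowest WT signal. The mean signal was 2380.5 ± 281 in KO and 4735 ± 1396 in WT (SD, n = 3 each), with the larger spread in WT. After loess normalisation within each array, log2(KO/WT) was -0.93, -0.59 and -0.86 on arrays 1 to 3, a mean of -0.79 (SD 0.18, n = 3 arrays). On that scale Mpst was 1.73-fold lower in KO, and with the processed signals, to which no offset was added, it was 1.94-fold lower. In bulk muscle, fewer cells of a type and less RNA per cell cannot be told apart.

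The Mpst ratio lay far out among the genes measured. Counting Mpst itself, 8 of the 7418 genes had a ratio as low or lower. Within 0.5 log2 units of its average intensity there were 1047 other genes, of which 5 were as low. Their median was -0.06, with 5% and 95% quantiles of -0.36 and 0.21. These ranks describe the value for which the gene was chosen. The gene had 1 probe on the array, so no second probe could be set beside it.

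**Figure D2:**
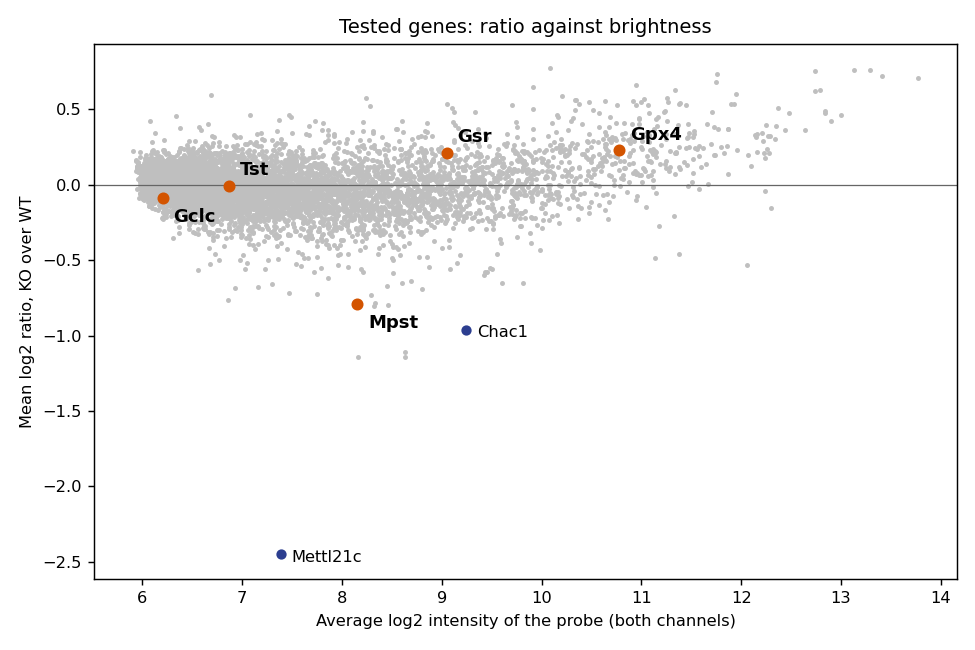
Mean log2 ratio of KO over WT (vertical axis) against the average log2 intensity of both channels (horizontal axis) for the 7418 tested genes, with tested members in orange, Mettl21c and Chac1 in blue and all others in grey. Mpst lies at -0.79 below the grey band, while Tst, Gclc, Gsr and Gpx4 lie within it, and the band bends upward at the bright end.

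The stretch before the annotated start of Mpst is shown because it is where the transcript begins, and the stretch before Gclm because Gclm is a long-known target of the antioxidant factor NRF2. Both were read from a RefSeq table of promoters of build GRCm38.p6, on the plus strand, at chr15:78406462-78406711 and chr3:122245307-122245486. Of the 10 members 6 had an entry there, with 11 starts in all, and Tst, Cth, Gclc and Gsr are named only. The 250 bases before each start were searched on both strands for the core of the antioxidant response element (TGACNNNGC), the core of the amino acid response element (TGATGNAA) and the GC box (GGGCGG). Capitals mark the matches.
Mpst: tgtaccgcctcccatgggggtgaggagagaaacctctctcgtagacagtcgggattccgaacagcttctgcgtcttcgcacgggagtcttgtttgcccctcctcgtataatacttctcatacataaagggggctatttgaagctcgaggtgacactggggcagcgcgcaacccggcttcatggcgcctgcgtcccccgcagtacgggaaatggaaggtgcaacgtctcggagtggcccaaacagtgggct
Gclm: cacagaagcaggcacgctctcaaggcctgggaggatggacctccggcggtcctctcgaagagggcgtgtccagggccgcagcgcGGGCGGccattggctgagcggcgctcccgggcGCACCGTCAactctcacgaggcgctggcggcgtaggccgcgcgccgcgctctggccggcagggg
Mpst second start: gagggcgtggggagggggTGACATGGCgga

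The 250 bases before the first Mpst start held none of the 3 motifs. The 30 bases printed for its second annotated start, chr15:78406771-78406800, held a match to the antioxidant core that began 12 bases before that start. The Gclm stretch is printed up to where the annotated gene begins, which leaves off the last 70 bases before the start in the promoter table, and these hold 2 more GC boxes. Its antioxidant core lay 134 bases before that start, on the minus strand. Of 32851 promoters in the table, 10.2% held the antioxidant core, 3.45% the amino acid core and 32.7% the GC box, and the amino acid core was in none of the 11 stretches of the members. The first Mpst stretch was 58.0% G or C, against a median of 52.4% over all promoters. A match describes letters and is not a site of binding.

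The nearest enzyme to Mpst in function is Tst, or rhodanese, which moves sulfur from thiosulfate onto an acceptor, and the gene also lies beside Mpst on chromosome 15. Its first probe had processed signals of 753, 1223 and 1141 in KO soleus, against 625, 1030.4 and 1235 in WT soleus. The second probe gave 612, 1104 and 643 in KO and 630.0, 1118 and 670.1 in WT. At both probes the groups overlapped, and array 2 was high in both genotypes at the second one. The processed signal of the second probe was lower in KO within each array (mean log2 ratio -0.04, SD 0.02). Its normalised ratios were 0.02, 0.05 and -0.05. The mean normalised log2 ratios of the first and second probe were -0.01 (SD 0.06, n = 3) and 0.01 (SD 0.05, n = 3). The first, which stands for the gene, did not pass (limma adjusted p = 0.970, 95% interval -0.17 to 0.15). On the 3 arrays Mpst lay 0.93, 0.63 and 0.79 log2 units under Tst.

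The other genes nearest to Mpst on the chromosome gave no second low ratio where they could be measured. On the side of Tst, Csf2rb, a receptor subunit of blood cells, stood at -0.07 (SD 0.29, limma adjusted p = 0.832). Tex33 was not tested. On the far side, Kctd17 had a mean log2 ratio of 0.0048 (SD 0.16, limma adjusted p = 0.989). Tmprss6 and Il2rb were not tested. The order of these neighbours is that of build GRCm38.p6.

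The transsulfuration enzymes, which are best known from liver and kidney, gave little signal in soleus. Cbs, which joins homocysteine to serine, had processed signals of 27.1, 23.05 and 26.7 in KO and 70.8, 79.6 and 20.8 in WT, and none was well above background. Cth, which releases cysteine from cystathionine, was not well above background at its first probe. At its second probe Cth had 85.1, 172 and 133 in KO and 96.2, 177 and 77.1 in WT, well above background on 2 arrays in each genotype. The groups overlapped there and the mean log2 ratio was -0.0028 (SD 0.06, n = 3), with no test. For Cbs, and for Cth at its first probe, a ratio was not measurable.

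Glutathione synthesis could be followed through 1 of its 3 ligase genes. Gclc, the catalytic subunit of glutamate-cysteine ligase and the step that limits the rate, had processed signals of 217, 221 and 153 in KO, against 393, 380.3 and 90.5 in WT. KO was below WT on arrays 1 and 2 and above it on array 3, where the WT signal was not well above background. Its log2 ratios were -0.20, -0.24 and 0.17, a mean of -0.09 (SD 0.22, n = 3, limma adjusted p = 0.755, 95% interval -0.32 to 0.14). The processed signals, without the offset that shrinks the ratios of dim probes, gave -0.86, -0.78 and 0.76 on the 3 arrays. On either scale arrays 1 and 2 were close and the wide spread came from array 3. Without array 3 the mean normalised ratio was -0.22 (SD 0.03, n = 2 arrays, limma adjusted p = 0.261).

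Gclm, the modifier subunit of that ligase, lay between 20.1 and 28.1 in KO and between 19.7 and 34.1 in WT. Gss, which adds glycine to complete glutathione, lay between 19.4 and 27.4 in KO and between 19.5 and 70.0 in WT. Neither gene cleared the background on any array, in KO or in WT, so these probes left the level of both genes unmeasured.

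Gsr, the reductase that restores glutathione with NADPH, was measured on all arrays. Its bright probe gave 5812, 6113 and 11063 in KO, against 5176, 5546 and 8563 in WT. KO was above WT within each array, while the ranges overlapped across arrays, since array 3 was high in both genotypes. The log2 ratios were 0.06, 0.21 and 0.36, a mean of 0.21 (SD 0.15, n = 3) that did not pass over all genes (limma adjusted p = 0.331, unadjusted p = 0.0373, 95% interval 0.02 to 0.40). Among the 638 genes within 0.5 log2 units of its intensity the median was -0.03, and 52 were as high. Its other probe was not well above background. Without loess the ratio turned negative, to -0.62 when each array was centred on the median of its spots and to -0.18 when it was centred on the tested probes.

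The peroxidases Gpx1 and Gpx4 are selenoproteins that spend glutathione. Gpx4, which reduces lipid hydroperoxides in membranes, had processed signals of 22085, 29245 and 38523 in KO, against 21020.2, 29176 and 28566 in WT. On arrays 1 and 2 the genotypes were close, and on array 3 KO was higher. The log2 ratios were 0.12, 0.11 and 0.45, a mean of 0.23 (SD 0.19, n = 3, limma adjusted p = 0.339, unadjusted p = 0.0402, 95% interval 0.01 to 0.44). Its spot on array 3 lay among those that matched poorly, and without it the mean was 0.12 (SD 0.01, n = 2 arrays, limma adjusted p = 0.606). The 205 genes of like intensity had a median of 0.19, so Gpx4 stood close to genes of its own brightness. It also turned negative without loess, to -0.81 and -0.37 in those centrings.

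Gpx1, which reduces hydrogen peroxide in the cytosol and mitochondria, had the widest gap between arrays of all members. Its processed signals were 17829.8, 12092 and 84.2 in KO, against 17613, 16273 and 43.2 in WT. On arrays 1 and 2 the probe was bright in both genotypes, and on array 3 it was not well above background in either. The gene was therefore not tested on all 3 arrays. The log2 ratios on arrays 1 and 2 were 0.07 and -0.35, a mean of -0.14 (SD 0.29, n = 2 arrays), with a limma adjusted p of 0.681 once the spot on array 3 was left out. On array 1 the genotypes were close, and on array 2 the KO signal was lower.

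**Figure D3:**
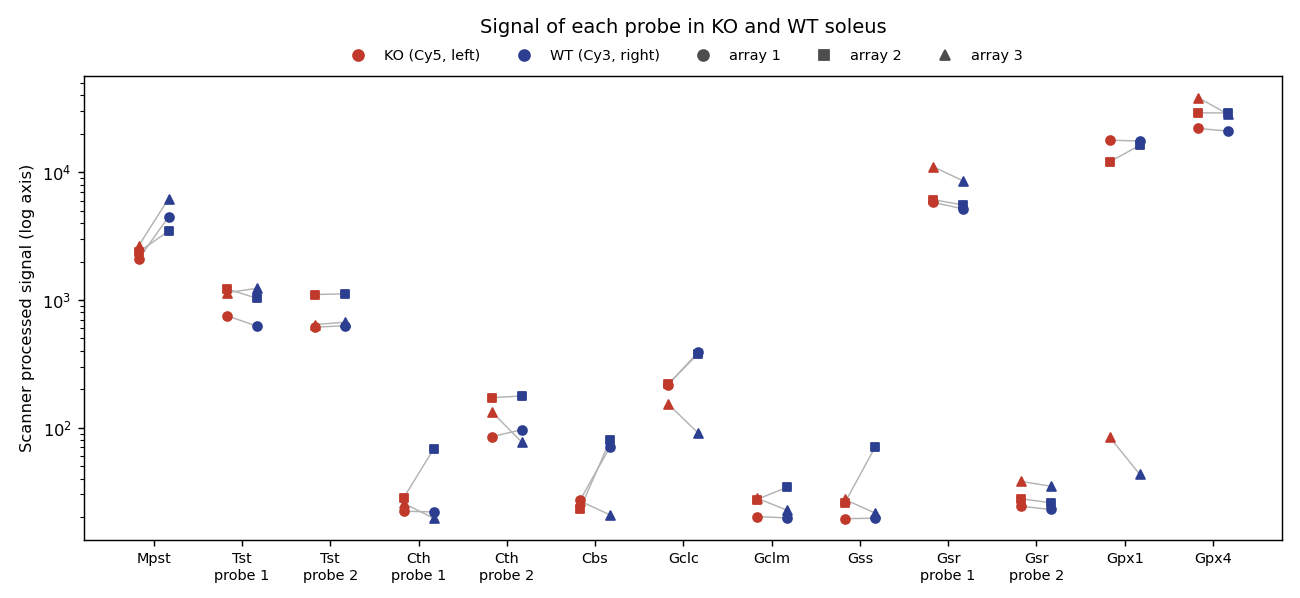
Processed signal of the 13 member probes on a log axis, with KO (red) left of WT (blue), 1 marker shape per array and grey lines joining the genotypes of an array. All 3 Mpst lines climb from KO to WT, the Gpx1 pair of array 3 lies at 84.2 in KO and 43.2 in WT far under the other arrays, and Cbs, Gclm and Gss stay near the background.

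Set together, 0 of the 4 other members tested passed in limma, where 3 of the 7418 genes did (0.0404%), all of them lower in KO. With no adjustment, 2 of the 4 had a p under 0.05, Gsr and Gpx4, both with a positive ratio, against 13.4% of all genes, 5.9% higher and 7.54% lower. The mean difference between the log2 ratio of Mpst and that of each other member within an array was -0.78 for Tst, -0.70 for Gclc, -1.002 for Gsr and -1.02 for Gpx4. On each of the 3 arrays Mpst had the lowest normalised ratio of the 5. By processed signals Gclc was lower than Mpst on array 2, at -0.78 against -0.55. Mpst was chosen for its low ratio, so its place among the 5 carries no test. When array 3 was left out wherever it matched poorly, Gpx1 entered the test, and 0 of 5 passed.

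**Figure D4:**
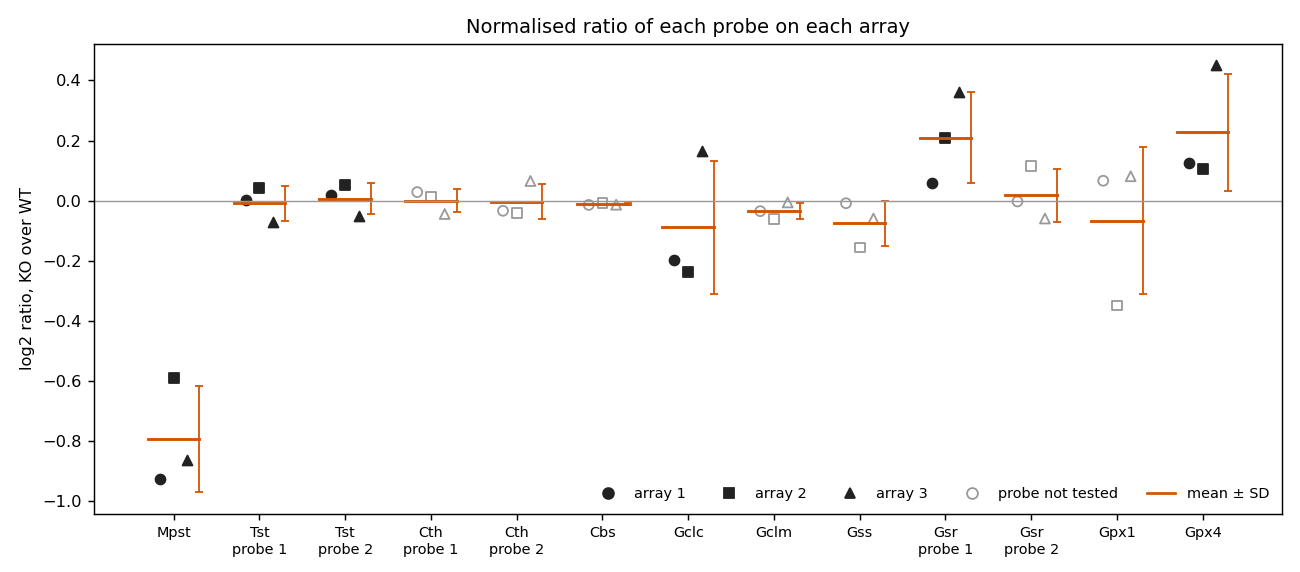
Normalised log2 ratio of KO over WT of each member probe on each array (filled markers for tested probes, open markers for probes not tested), with the mean ± SD over 3 arrays in orange. Mpst lies between -0.93 and -0.59, all other tested probes between -0.24 and 0.45.

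The wider pathways around the members were described through 7 lists with 149 genes in all, of which 147 were on the array and 83 were tested. A positive mean ratio was found for 32 and a negative one for 51, with a median of -0.02, against -0.0028 over all genes tested, of which 3643 were positive and 3775 negative. Without the members there were 78 genes, 30 positive and 48 negative. List medians near 0 had no fixed sign, and with the processed signals that of the methionine cycle was -0.03, that of the thioredoxin list -0.0093 and that of the selenoproteins 0.00099. Over the lists 1 gene passed, Chac1, and it was lower in KO. With no adjustment, 4 of these 78 were higher and 8 lower at a p under 0.05, where the shares over all genes were 5.9% and 7.54%.

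In the breakdown of sulfide and cysteine, which holds Mpst and Tst, 6 of 16 listed genes were tested, 1 with a positive and 5 with a negative ratio. Mpst, chosen for its low value and read without a test, is 1 of these 5. Of the rest, Ethe1 was at -0.07, Tstd3 at -0.04 and Tst at -0.01. Suox and Got1 are given below, and 0 of these genes passed. The median of the list, Mpst included, was -0.06. It was -0.03 with poorly matched spots left out, -0.01 over 8 genes without array 3 and -0.21 with the processed signals. Got1, an aspartate aminotransferase that can also turn cysteine into mercaptopyruvate, the substrate of Mpst, stood at 0.22 (SD 0.05, limma adjusted p = 0.245), the opposite sign to Mpst. It turned to -0.86 and -0.43 in the centrings without loess. Suox, the sulfite oxidase at the end of the route, was at -0.10 (SD 0.21, adjusted p = 0.691), and at -0.00022 without its poorly matched spot on array 3. In the methionine cycle 6 of 16 were tested, 4 positive and 2 negative, with a median of 0.03 and 0 passing. Ahcyl2 and Ahcyl1, relatives of the hydrolase that frees homocysteine, were at -0.15 (SD 0.14) and 0.06 (SD 0.12), and Ahcyl2 was at -0.09 without its poorly matched spot on array 3. With array 3 left out wherever it matched poorly, the median of the cycle was -0.05 over 9 genes. For the lists that follow, the same step gave medians between -0.08 and 0.02.

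In glutathione synthesis and turnover 8 of 22 listed genes were tested, 2 positive and 6 negative, with a median of -0.08. Chac1, which degrades glutathione in the cytosol, had processed signals of 3938, 7817 and 7279 in KO, against 6600, 16189 and 18412 in WT. KO was lower within each array, while across arrays the ranges overlapped. The log2 ratio of Chac1 fell by 0.96, with an SD of 0.20 over 3 arrays (limma adjusted p = 0.0476). Its ratio was negative under all 18 alternatives run, but the call held under 9 of them and was lost without array 3. Over these alternatives the adjusted p ran from 6.0e-04 to 0.9995. Hagh, which returns glutathione in the detoxification of methylglyoxal, was at -0.20 (SD 0.16, adjusted p = 0.357).

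Among the glutathione peroxidases and transferases 16 of 33 listed genes were tested, 4 positive and 12 negative, with a median of -0.07 and 0 passing. At an unadjusted limma p under 0.05, 4 of these 16 were lower and 1 was higher, against 7.54% and 5.9% over all genes. The higher one was Gpx4, whose unadjusted limma p was 0.197 without its poorly matched spot. Gstm4 was at -0.32 (SD 0.15, limma adjusted p = 0.172), at -0.75 with the processed signals and at -0.18 with no background subtraction, while its other probe, well above background on 2 arrays, stood at 0.02. Gstp2 was at -0.24 (SD 0.05, adjusted p = 0.207) and at -0.12 at its other probe. Both code for cytosolic transferases that join glutathione to other molecules, and both belong to families of close copies whose probes may share targets.

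Thioredoxins, peroxiredoxins and glutaredoxins, which carry the other thiol system of the cell, had 24 of 30 tested, 12 positive and 12 negative, a median of 0.01 and 0 passing. Glrx5, a mitochondrial glutaredoxin of iron-sulfur cluster assembly, was at 0.29 (SD 0.13, limma adjusted p = 0.192), and turned to -0.72 and -0.28 in the centrings without loess. Prdx6, a peroxiredoxin that uses glutathione, was at -0.31 (SD 0.18, adjusted p = 0.197). The other Prdx6 probe tested gave -0.02, and 0.03 without its poorly matched spot on array 3. A further probe, not tested and well above background on 2 arrays, gave -0.16, and -0.21 without its poorly matched spot.

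Genes of the NRF2 response and of NADPH supply had 17 of 20 tested, 6 positive and 11 negative, with a median of -0.09 and 0 passing, and 0 were at an unadjusted p under 0.05 in either direction. Taldo1, the transaldolase of the pentose phosphate route, was at -0.18 (SD 0.12, limma adjusted p = 0.378), and Blvrb, a biliverdin reductase, at -0.13 (SD 0.01, adjusted p = 0.452). The Blvrb probe was dim, above background on 2 arrays in KO, and the processed signals gave -0.85 (SD 0.78). Selenoproteins and the machinery that makes selenocysteine, a list with Gpx1 and Gpx4 in it, had 14 of 23 tested, 5 positive and 9 negative, with a median of -0.02 and 0 passing. Selenok, a selenoprotein of the endoplasmic reticulum, was at 0.36 (SD 0.36, adjusted p = 0.305) at its bright probe, where the arrays gave 0.06, 0.27 and 0.76 and the mean without array 3 was 0.16. Its other probe was at -0.26, and at -0.25 without its poorly matched spot on array 3. Selenos, of the same membrane, was at -0.17 (SD 0.07, adjusted p = 0.350).

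**Figure D5:**
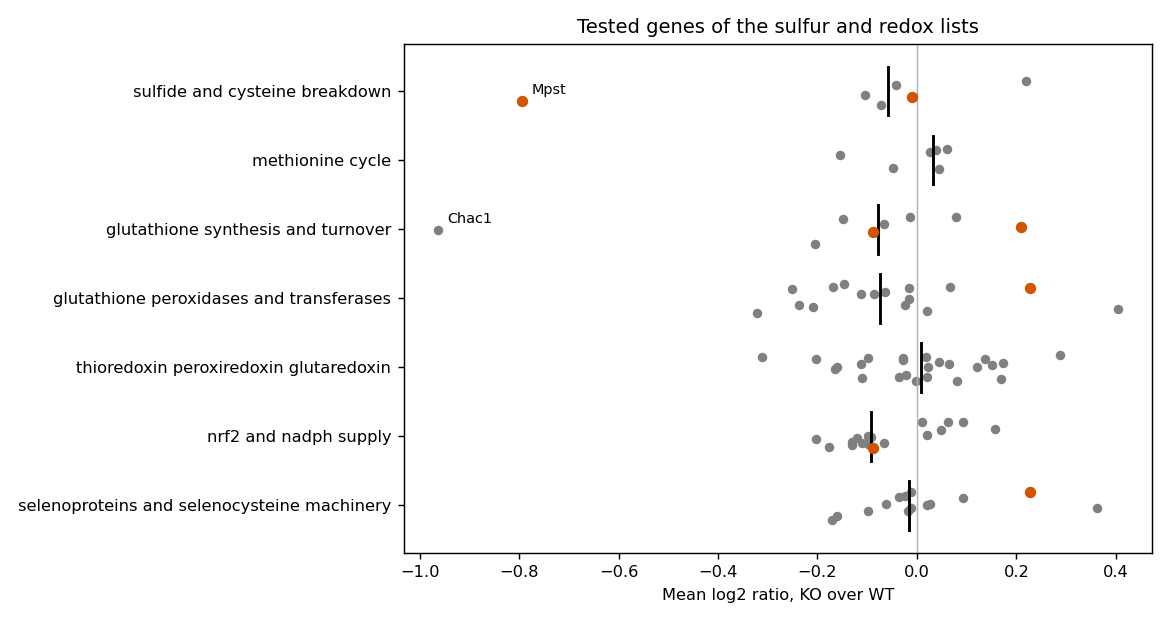
Mean log2 ratio of KO over WT of the 83 tested genes of 7 lists, 1 row per list, with members in orange, other genes in grey and a black bar at the median of each row. Chac1, at -0.96, and Mpst, at -0.79, stand apart on the lower side, and the row medians run from -0.09 to 0.03.

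Among the tested genes whose 3 ratios lay nearest to those of Mpst, by Euclidean distance over the 3 arrays, were Vapb at a distance of 0.49, Chac1 at 0.51, Asph at 0.57 and Trim54 at 0.59. Vapb, a tether of the endoplasmic reticulum, had a mean log2 ratio of -0.54 (SD 0.29), Asph, whose products include proteins of the calcium store, -0.48 (SD 0.09), and Trim54, a ubiquitin ligase of the sarcomere, -0.65 (SD 0.32). Other probes of Vapb and Asph, dimmer than the ones named, did not share the low ratio. The second Vapb probe gave 0.01, and the other tested Asph probes 0.05 and 0.0004. The likeness rests on 3 arrays and the genes share both channels of each.

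For the arrays as a whole, Mettl21c was checked first. Its processed signals were 200.4, 32.3 and 45.4 in KO, against 7527, 3677 and 4486 in WT, and KO was well above background on 1 of the 3 arrays. Its log2 ratio fell by 2.45, with an SD of 0.48 over 3 arrays (limma adjusted p = 0.0170, or 0.0549 without array 3, and 1.4e-07 to 0.874 over 17 alternatives). This size is shrunk by the offset, and the processed signals gave -6.23 (SD 0.87), of which only the -5.23 of array 1 rests on a KO signal above background. The share of spots that stood well above background was 22.5% to 22.9% in KO and 20.4% to 23.6% in WT. Slow fibre markers were well above background on every array for 7 of 8 genes. Of the 6 tested, 5 had positive ratios (median 0.22), among them Myl3 at 0.49, while Atp2a2, the calcium pump of slow fibres, was at -1.14, and the summed signal was 262802 to 279464 in KO and 232137 to 305095 in WT. The median of this list was -0.31 in the centring on tested probes with no loess. Markers of some other cells stood on one side of 0. The 4 red blood cell markers tested of 10 listed all had positive ratios (median 0.18), with a summed signal of 78173 to 130182 in KO and 33347 to 54182 in WT, and Epb42 was among those not above background. The 7 macrophage markers tested of 12 listed all had negative mean ratios (median -0.23). Their median was -0.24 and -0.22 on arrays 1 and 2 but 0.06 on array 3. Their summed signal was 7322 to 11320 in KO and 8042 to 16436 in WT, and Cd163, Lyz2 and Ptprc were not above background. Both signs occurred among endothelial markers (2 of 5 tested positive), adipocyte markers (4 of 6) and fibroblast and tendon markers (3 of 6). With poorly matched spots left out, the median was 0.22 for slow fibre, 0.18 for red blood cell and -0.23 for macrophage markers. It was then -0.11 for endothelial and -0.07 for fibroblast and tendon markers, and that of adipocyte markers went from 0.09 to -0.04. Of these markers 0 passed over all genes, and their part in the Mpst value was not tested. The liver and kidney markers Alb, Apoa1, Ttr and Umod were not well above background on all arrays, and their summed signal on array 3 was 3450 in KO and 2419 in WT, against 98.6 to 181 in KO and 91.7 to 137 in WT on arrays 1 and 2. With 3 arrays, the precision of each value is limited by their number.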

How the data were processed

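RNA came from a Trizol extraction and was labelled by Agilent's low-input method, per the labels' protocols. The 3 arrays with 2 colours were scanned together on 1 slide. The deposited scanner files give the intensity of each spot in both channels, its background, quality flags and a processed signal, which Feature Extraction had background-subtracted and dye-normalised. Its version is 12.0.3.1 per the file headers and 11.5 per the submitters' processing notes. The deposited series matrix holds 1 log10 ratio of KO over WT per spot, which equalled that of the scanner files to within 5e-10 on arrays 1 and 2 and 0.00499 on array 3. Its column medians were 0.

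Median spot intensities were corrected with normexp (offset 50), which shrinks the ratios of dim probes, and normalised by loess within each array in limma 3.58.1 under R 4.3.3, and the tables were loaded by data.table, version 1.17.8. Controls and outlier spots had weight 0 there, and the outlier spots (536, 572 and 1002 on arrays 1 to 3) were left out. Repeated spots of a probe were averaged. Tested probes had to give a value on every array and to clear the background on every array in KO, in WT or in both (8385 of 55681 probes), and a gene was represented by its brightest tested probe (825 genes had more than 1). Names came from RefSeq accessions, without version, of assembly GRCm38.p6 (28664 of 29472 matched). The mean ratio was tested against 0 with eBayes, both directions, with Benjamini-Hochberg adjustment over 7418 genes and a threshold of 0.05. Intervals are 95% intervals of the moderated fit. Replicate numbers pair 1 KO with 1 WT sample on an array, as the labels give it, and the ratio keeps that pairing.

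The members, gene lists and alternatives were chosen with earlier results of these data known, and leaving out array 3 where it matched poorly was added after seeing the data. Named genes were all members, the 2 genes of smallest unadjusted p in each list that are not members, Mettl21c, Chac1, the 3 nearest coding genes on each side of Mpst and the 5 genes of nearest ratios, of which 1 is not reported here. On simulated arrays of 7418 genes for KO over WT, 91 of 100 genes were recovered at a simulated log2 change of 2 and 57 of 100 at 1, and 7 unchanged genes were called. The median fitted log2 change was 1.03 where 2 was simulated and 0.45 where 1 was, so the fit understated the simulated sizes.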

Additional observations from a re-analysis of the deposited data

How the results depend on the processing

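The log2 ratio of Mpst was negative under all 18 alternatives run. It was -1.50 with arrays centred on the median of all spots without loess, where the median over all genes was itself -0.45, and -1.06 with arrays centred on the tested probes without loess. It ran from -0.89 to -0.73 with an array left out. Of the 4 other members tested, 3 passed under the first centring, Tst (-0.46), Gsr (-0.62) and Gpx4 (-0.81), all lower in KO. That centring called 4919 of the 7418 genes, all lower. Under the second centring 1 passed, Gpx4 (-0.37), where 1644 of the 7418 genes were called lower and 1012 higher. Under every other alternative 0 of the other members passed.

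The count of genes called was 3. It was 0 with no background subtraction, with scanner processed signals, with the series matrix, with no filter on dim probes and with signal required in both channels, where 960, 805, 805, 2468 and 935 genes had an unadjusted p under 0.05 in limma. It was 1 with outlier spots kept and 1 with the mean of a gene's probes, 25 with an offset of 16, 63 with array weights, 87 with robust trended moderation and 98 at an adjusted p of 0.10. Without loess it was 4919 and 2656. It ran from 0, without array 3, to 16 with an array left out, and was 7 with array 3 left out where it matched poorly. The fit of 6 channels as separate samples, which drops the replicate block and so the pairing within an array, called 0 genes (198 at an unadjusted p under 0.05) and left Mpst at -0.79.

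Signs turned for genes near 0 or bright. Centred on all spots without loess, Gsr was -0.62, Gpx4 -0.81, Got1 -0.86, Ahcyl1 -0.27, Glrx5 -0.72, Selenok -0.62 and Kctd17 -0.23. Centred on the tested probes, Gclc was 0.11, Gsr -0.18, Gpx4 -0.37, Got1 -0.43, Glrx5 -0.28, Blvrb 0.052, Selenok -0.18 and Csf2rb 0.036. Tst was 0.0064 with an offset of 16, 0.13 with the processed signals and with the series matrix, 0.0072 with array weights, and ran from -0.036 to 0.036 with an array left out. Kctd17 was -0.025 with the processed signals and with the series matrix, -0.041 with array weights and -0.087 to 0.067 with an array left out, and Csf2rb then ran from -0.22 to 0.069. The causes were not tested. Probes near background set a limit for Cbs, Gclm, Gss and Cth.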
